A study of Mus musculus with 8 samples.

Results

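The genes described here are 10 that encode secreted fibroblast growth factors: Fgf3, Fgf4, Fgf5, Fgf8, Fgf9, Fgf10, Fgf15, Fgf17, Fgf18 and Fgf20. They were followed through 4 lists of H3K27me3 peaks, out of 34328 annotated protein-coding and long noncoding genes. They were selected on their peak cover, peak extent and pileup in the comparison below, so those values are given as a description. The 10 genes were part of the limma fit over all genes described below, but no test result is given for them singly. H3K27me3 is the histone mark laid down by Polycomb repressive complex 2, and ChIP-seq was used to map it in neural stem cells of female mice. The lines came from E14.5 embryos on a C57BL/6 129/Castaneus mixed background. All cells carried 1 deleted allele of Smchd1, a chromatin protein of the inactive X chromosome, a maternal 129 X with the Xist deltaA allele, and a paternal Castaneus X. The del/fl cells (2 libraries) kept a conditional Smchd1 allele and were not transduced. The del/del cells (2 libraries) received a retrovirus with Cre recombinase and a puromycin cassette (MSCV-Cre-puro), were put under puromycin 24 hours later and were harvested 7 days after transduction. Deletion, viral transduction and selection therefore cannot be told apart in any comparison below. Peak lists do not show whether Smchd1 was lost, and reads were not separated by parental allele in them.

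Fibroblast growth factors signal between cells through the receptor tyrosine kinases Fgfr1 to Fgfr4, with heparan sulphate or Klotho proteins as partners, and the signal passes through the Ras and MAP kinase cascade. Individual ligands are made in restricted places and stages of the embryo, and several of their genes are known Polycomb targets where they are silent. Neural stem cells are commonly grown with Fgf2 in the medium.

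MACS2, the peak caller used by the authors, kept 11793402 to 14064030 tags per library. For the controls it kept 20770551 and 31629404 tags (del/del) and 19579060 and 15525700 (del/fl), and what this does to the peaks was not tested. Autosomal peaks numbered 17102 and 26327 (del/del) and 17564 and 26637 (del/fl), and they covered 32.9 and 44.1 Mb (del/del) and 35.8 and 47.5 Mb (del/fl). Replicate 2 was thus the more covered library of each genotype, and mean cover was lower in del/del. The part of both in the results below was not tested beyond the division by autosomal cover given with them. Of 14 neural stem cell markers, 12 had no peak within 2.5 kb of either end, Sox2, Nes and Vim among them. Pax6 had 8.70% to 22.1% cover and Sox1 at most 2.28%. Marker lists of neurons, glia, vessels, blood and mesenchyme gave 0 called genes in either direction (limma). A list of this mark shows which genes are marked, not which are expressed.

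Gene-end cover, the percent of the windows reaching 2.5 kb on either side of each annotated end that lay under peaks, ran from 0% to 100% among the 10 genes. Fgf4, Fgf3 and Fgf15 stood in that order at the top in all 4 libraries and Fgf18 at the bottom. This order depends on gene length too. Fgf4, Fgf3 and Fgf15 are 3.86, 4.74 and 4.42 kb long, so their windows overlap and 1 peak can fill most of them. In del/fl the highest peak was longer at Fgf9 (10996 and 10969 bp) than at Fgf4 (8434 and 9508 bp), although Fgf4 had the higher end cover. Between them Fgf8, Fgf20, Fgf5, Fgf9, Fgf10 and Fgf17 lay at 35.8% to 61.0% in del/fl and 16.2% to 45.3% in del/del. In these 6 both del/del libraries were below both del/fl libraries, and in Fgf15 both were above. For comparison, 15.5% of the 8065 autosomal genes with any end cover were lower in the same sense and 6.36% were higher. The median difference was -8.998 percentage points over the 10 genes and -0.965 points over the autosomal genes, whose middle 50% ran from -4.34 to 1.67 points. As the genes were chosen with this contrast in view, these figures place them and support nothing. Every one of the 6 lower genes kept its sign when the windows were set to 1 or 5 kb and when cover was divided by each library's autosomal cover. The same held when lists were made equally long and when peaks up to 3 kb apart were joined. Leaving out 1 library cannot change the sign where the genotypes are separate, so it was no check of these 6 genes. With stricter peaks (−log10 q of at least 5) Fgf10 had no peak in any library, the other 5 kept their sign and Fgf15 turned lower. The genotypes also stopped being separate at Fgf5, Fgf9, Fgf10 and Fgf17 with joined peaks, at Fgf10, Fgf17 and Fgf20 after the division, and at Fgf5, Fgf17 and Fgf20 with 1 kb windows. Gene-body cover was lower in both del/del libraries at 5 of the 10 genes (Fgf5, Fgf8, Fgf9, Fgf15 and Fgf20) and higher at 0, beside 14.8% and 6.74% of 8293 autosomal genes. After the division the count was 1. A lower cover can mean fewer cells with the mark, less of it per cell, or a weak stretch that missed the calling cutoff. These data do not tell them apart.

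**Figure D1:**
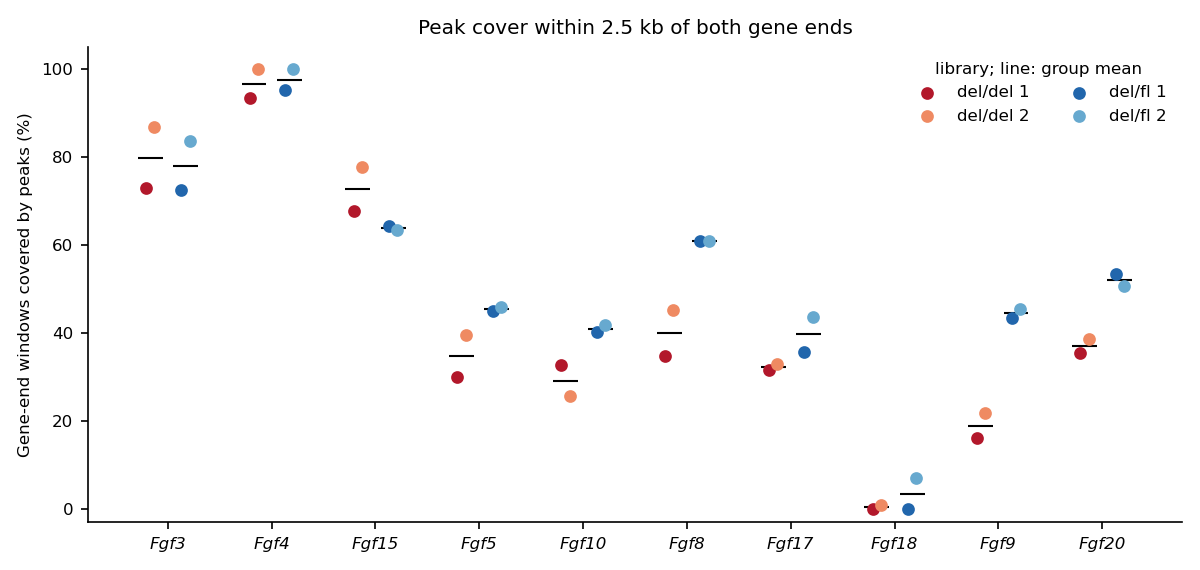
Percent of the gene-end windows (2.5 kb on either side of each annotated end) covered by peaks, per gene and library, with black lines at the means of the 2 libraries of each genotype. At Fgf9 the del/del libraries sit at 16.2% and 21.8% and the del/fl libraries at 43.4% and 45.6%, while at Fgf4 all 4 lie between 93.3% and 100%.

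Fgf9, Fgf20 and the X-linked Fgf16 form 1 subfamily by protein homology. Fgf9, a growth factor of lung, testis and skeleton, lies on chromosome 14 at 58070671 to 58112854 (mm10). Its end cover was 16.2% and 21.8% (del/del) and 43.4% and 45.6% (del/fl), a difference of -25.5 points and the largest among the 10 genes. In both del/fl libraries 1 unbroken peak of 10996 and 10969 bp spanned the lower end of the gene, beginning at 58068830 and 58068616. In del/del the highest peak measured 6698 and 7112 bp and began inside the gene, at 58072398 and 58072451. A separate, weaker peak of 846 and 1461 bp lay over the gene's lower end in del/del, with a pileup of 6.06 and 8.15. Pileup is the signal of stacked tags that MACS2 reports as 1 value per peak. At the main peak it was 15.97 and 15.28 (del/del) and 16.82 and 16.13 (del/fl). In all 4 lists the main peak ranked high, above 96.2% to 97.9% of the autosomal peaks of its own list. The longest stretch covered in both del/fl libraries and in neither del/del library measured 1023 bp, from 58071375 to 58072397. A further 550 bp were lost from 58068830 to 58069379. Within 10 kb of the gene, 5 such stretches came to 2306 bp, and 2 stretches covered in both del/del libraries only came to 909 bp. When peaks up to 3 kb apart were joined, Fgf9 cover was 26.4% and 50% (del/del) and 50% in both del/fl libraries, and the genotypes no longer separated.

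Fgf20, a growth factor of the developing inner ear and kidney, lies on chromosome 8 at 40279166 to 40286953. End cover was 35.5% and 38.8% (del/del) and 53.5% and 50.6% (del/fl). Its main peak lay over the upper end of the gene and measured 3554 and 3875 bp (del/del) and 7207 and 6991 bp (del/fl), a ratio of means of 0.523. Both edges lay further in, by 1930 bp at the lower and 1454.5 bp at the upper edge on average. Pileup overlapped between the genotypes, with 15.4 and 11.1 (del/del) and 14.8 and 12.7 (del/fl). Of the bases around it, 1199 bp at 40288426 to 40289624, beyond the gene, and 821 bp at 40283652 to 40284472, inside it, were covered in both del/fl libraries only. Weaker peaks lay inside the gene in 3 libraries, but not at 1 shared place. They measured 1838 bp from 40281814 (del/del replicate 2), 353 bp from 40279735 (del/fl replicate 1) and 241 bp from 40281606 (del/fl replicate 2). That of del/del replicate 2 ended at 40283651, within the stretch under the del/fl main peaks, which began at 40282530 and 40282634. Body cover was 31.9% and 54.5% (del/del) and 61.3% and 58.6% (del/fl).

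The Fgf8 subfamily holds Fgf8, Fgf17 and Fgf18, ligands that pattern the midbrain and hindbrain, limb and skeleton. Fgf8, the signal of the boundary between midbrain and hindbrain, lies on chromosome 19 at 45736491 to 45742941. Its end cover was 34.8% and 45.3% (del/del) and 60.9% and 61.0% (del/fl), with no overlap. A single peak marked the gene in every library, of 4933 and 5984 bp (del/del) and of 7540 and 7548 bp (del/fl). The del/fl peaks nearly coincided, from 45737075 to 45744614 and from 45737041 to 45744588. In del/del the lower edge lay 784 bp and the upper edge 1301.5 bp further in on average, and 717 and 813 bp were lost there. Fgf8 was also lower in pileup, with 15.4 and 14.7 against 16.8 and 16.7, and in body cover, with 76.5% and 79.8% against 90.9% and 91.5%. Joining nearby peaks left these lengths as they were.

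Fgf17, expressed beside Fgf8 in the early midbrain and hindbrain, lies on chromosome 14 at 70636203 to 70642268. Cover at its ends was 31.6% and 33.0% (del/del) and 35.8% and 43.7% (del/fl). The main peak, over the upper end, had 2470 and 3304 bp (del/del) and 3578 and 3535 bp (del/fl). Only its upper edge separated the genotypes, by 650.5 bp on average. A peak of 506 bp in del/del replicate 1 and of 533 bp in del/fl replicate 2 marked the opposite end of the gene, where the other libraries had none. Fgf18, a growth factor of cartilage, bone and lung, lies on chromosome 11 at 33116970 to 33147400 and was nearly bare. End cover was 0% and 0.990% (del/del) and 0% and 7.08% (del/fl). Its peaks were short, at 213 to 1972 bp, and none was present in all 4 libraries. Tlx3, a homeobox gene of neurons 53.4 kb away, was 100% covered in every library.

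**Figure D2:**
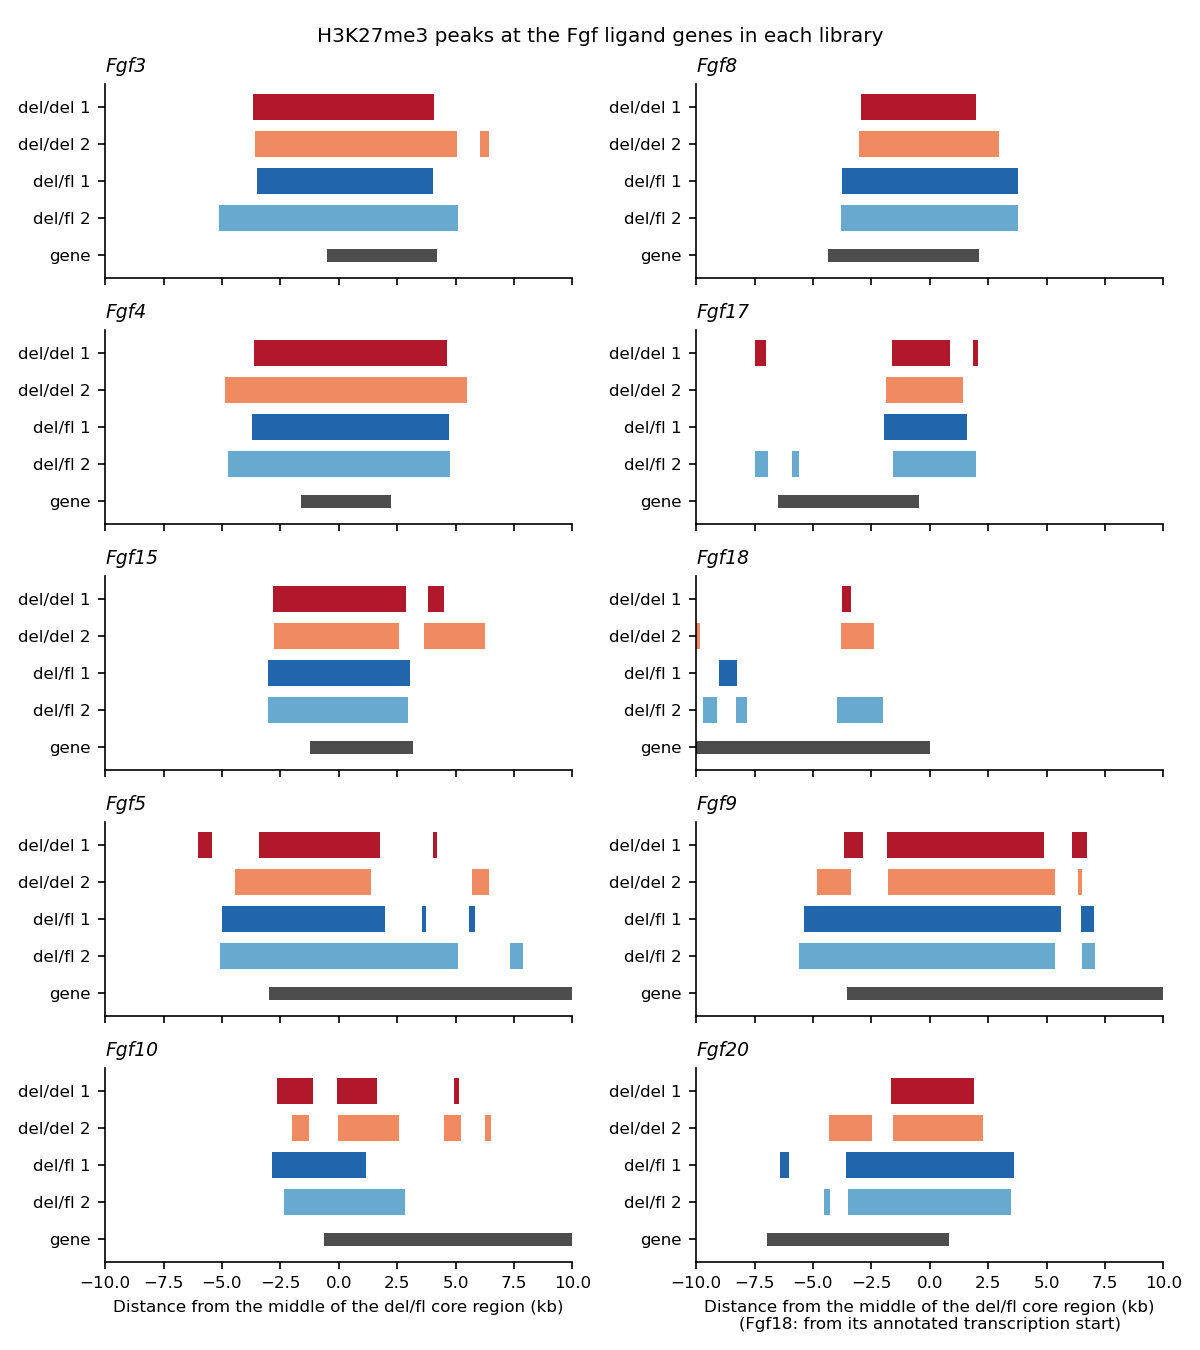
Peaks that touch each gene or the 2.5 kb beside it, drawn to scale per library against distance in kb from the middle of the core peaks of the del/fl libraries (for Fgf18, from its transcription start), with the gene in dark grey cut at 10 kb, so that peaks farther off are not drawn. Each bar is 1 deposited peak. At Fgf8 and Fgf20 the longest del/del bars are shorter at both edges than the del/fl bars, and at Fgf9 mainly at the lower edge. At Fgf10 the del/del bars are broken over the start of the gene, and at Fgf3 and Fgf4 the 4 libraries overlap in length.

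Fgf3, Fgf4 and Fgf15 lie side by side on chromosome 7, within 62.3 kb. Fgf3 acts in inner ear development, Fgf4 in the early embryo and the limb bud, and Fgf15, the mouse counterpart of human FGF19, in the embryonic brain and in bile acid control. Fgf3 (144838612 to 144843348) was 72.9% and 86.9% covered at its ends (del/del) and 72.4% and 83.6% (del/fl). Fgf4 (144861386 to 144865245) had 93.3% and 100% (del/del) and 95.2% and 99.97% (del/fl), and its body was 100% covered in all 4. At both genes replicate 2 exceeded replicate 1 in each genotype and the genotypes overlapped. Main peaks at Fgf4 reached a pileup of 29.0 and 24.3 (del/del) and 27.4 and 25.7 (del/fl), above 99.4% to 99.5% of autosomal peaks. Those at Fgf3 reached 25.9 and 20.6 against 21.7 and 21.9. These 2 genes thus had the strongest peaks of the 10 and showed no separation in length, with 7742 and 8631 bp against 7542 and 10235 bp at Fgf3 and 8268 and 10384 bp against 8434 and 9508 bp at Fgf4.

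Fgf15 (144896532 to 144900953) went both ways. Its end cover was higher in del/del, at 67.7% and 77.8% against 64.3% and 63.5%. Its main peak was shorter, at 5661 and 5313 bp against 6057 and 5984 bp, and its body cover lower, at 92.9% and 86.0% against 96.8% and 94.8%. A second peak beyond the upper end of the gene, of 714 bp in del/del replicate 1 and 2589 bp in replicate 2, made up the difference in end cover. These peaks were weak, with a pileup of 6.34 and 5.44, and neither del/fl library had one. With stricter peaks they dropped out and end cover became 60.1% and 56.4% (del/del) against 64.3% and 63.5% (del/fl). Between the windows of these genes the chromosome was less covered than within them, though unevenly, with the most cover in del/fl replicate 2. The 13.037 kb between the Fgf3 and Fgf4 windows was 3.57% and 11.0% covered (del/del) and 12.3% and 30.4% (del/fl). The 26.3 kb between the Fgf4 and Fgf15 windows was 4.37% and 9.14% covered (del/del) and 5.57% and 18.2% (del/fl). The 3 genes were thus marked by separate called peaks and not by 1 peak over the cluster. After joining peaks up to 3 kb apart, the regions at Fgf3, Fgf4 and Fgf15 measured 12090, 24573 and 5984 bp in del/fl replicate 2.

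Fgf5, a regulator of the hair cycle and a gene of the early epiblast, belongs to the Fgf4 subfamily and lies on chromosome 5 at 98254184 to 98277033. Cover was 30.1% and 39.5% (del/del) and 44.99% and 45.9% (del/fl). The main peak over its start measured 5202 and 5830 bp (del/del) and 6984 and 10178 bp (del/fl), so the del/fl libraries differed widely from each other. It began at 98253752 and 98252733 (del/del), nearer to the gene than in del/fl, with 98252185 and 98252098. Pileup overlapped, at 15.7 and 13.7 against 14.6 and 14.1. Joined over 3 kb, Fgf5 had 50% and 39.5% against 44.99% and 45.9%, with overlap.

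Fgf10, needed for limb and lung buds, lies on chromosome 13 at 118714699 to 118792573 and carried weaker marks. Its end cover was 32.7% and 25.8% (del/del) and 40.2% and 41.8% (del/fl). In del/fl 1 peak of 4020 and 5185 bp ran across the transcription start. In del/del that stretch held 2 peaks, of 1558 and 1708 bp in replicate 1 and of 689 and 2634 bp in replicate 2. The bases without cover in both del/del libraries, from 118714269 to 118715272 (1004 bp), took in the transcription start. Pileup of these peaks was between 7.15 and 9.32. The highest of each library stood above 84.1% to 91.8% of the autosomal peaks of its list, against 94.0% or more for the main peaks of Fgf3, Fgf4, Fgf5, Fgf8, Fgf9, Fgf15, Fgf17 and Fgf20. Joining peaks up to 3 kb apart closed this gap, and cover was then 42.7% and 38.3% (del/del) and 40.2% and 41.8% (del/fl).

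Promoter windows from RefSeq (GRCm38.p6, the same assembly as mm10) were matched for 6 of the 10 genes: Fgf3, Fgf4, Fgf5, Fgf9, Fgf10 and Fgf18. Each holds 250 bases before and 50 after a transcription start. The windows of Fgf3, Fgf4 and Fgf5 were 100% covered in every library, and that of Fgf18 was 0% covered in every library. The Fgf9 window was 100% covered except in del/del replicate 2, with 95.0%. Its transcription start, at 58072686, lay under the main peak in all 4, but 2015 bp inside the annotated gene. Within 2.5 kb of the annotated start of Fgf9, cover was 32.4% and 43.6% (del/del) and 86.8% and 91.1% (del/fl). The Fgf10 window was 100% covered in both del/fl libraries and 0% covered in both del/del libraries. Of 2864 autosomal promoter windows with any cover, 3.04% had some cover in both del/fl libraries and 0% in both del/del libraries. The 250 bases before the start are printed for the gene with the largest end difference (Fgf9), the smallest (Fgf4) and the subfamily partner Fgf5. Fgf10 and Fgf18 were added after their values were seen, because the first lost promoter cover and the second had none. Capitals mark CG dinucleotides, the sites of CpG methylation, whose dense clusters are common at silent promoters marked by Polycomb.
Fgf9, chr14:58072436-58072685, plus strand: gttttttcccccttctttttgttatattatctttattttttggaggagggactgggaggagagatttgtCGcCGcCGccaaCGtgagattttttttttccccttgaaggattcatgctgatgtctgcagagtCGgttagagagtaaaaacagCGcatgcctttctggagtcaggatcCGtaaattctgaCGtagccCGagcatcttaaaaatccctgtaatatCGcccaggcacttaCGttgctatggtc
Fgf4, chr7:144861136-144861385, plus strand: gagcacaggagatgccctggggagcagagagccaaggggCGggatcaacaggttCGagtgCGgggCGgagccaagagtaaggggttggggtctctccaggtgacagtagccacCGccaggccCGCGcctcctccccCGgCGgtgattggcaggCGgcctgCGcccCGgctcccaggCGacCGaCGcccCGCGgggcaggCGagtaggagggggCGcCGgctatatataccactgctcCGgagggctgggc
Fgf5, chr5:98253934-98254183, plus strand: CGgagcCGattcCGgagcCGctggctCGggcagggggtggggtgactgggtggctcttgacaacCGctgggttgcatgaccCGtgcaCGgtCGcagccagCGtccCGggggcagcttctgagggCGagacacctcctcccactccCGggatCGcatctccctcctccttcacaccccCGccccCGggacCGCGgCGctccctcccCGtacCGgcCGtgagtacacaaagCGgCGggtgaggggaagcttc
Fgf10, chr13:118714449-118714698, plus strand: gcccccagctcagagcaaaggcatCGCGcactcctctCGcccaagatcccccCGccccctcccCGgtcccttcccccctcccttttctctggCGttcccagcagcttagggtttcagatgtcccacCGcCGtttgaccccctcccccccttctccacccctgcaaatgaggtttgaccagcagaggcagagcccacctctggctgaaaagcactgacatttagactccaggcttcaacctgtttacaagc
Fgf18, chr11:33147401-33147650, minus strand: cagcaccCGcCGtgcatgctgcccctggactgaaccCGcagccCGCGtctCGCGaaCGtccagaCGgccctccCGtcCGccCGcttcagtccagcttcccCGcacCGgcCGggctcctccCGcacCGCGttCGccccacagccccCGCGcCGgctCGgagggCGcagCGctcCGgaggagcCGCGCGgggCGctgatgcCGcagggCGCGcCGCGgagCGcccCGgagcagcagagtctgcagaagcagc

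CG was counted over the whole 300-base window, where it reads the same on both strands. Fgf18 had 47 CG dinucleotides, a number that 1.49% of the 31396 autosomal promoter windows reached, and it was the window with no cover. Fgf5 had 29 and Fgf4 had 28, reached by 13.3% and 14.6% of windows, and both were fully covered. Fgf3, fully covered too, had 14. Fgf9 had 12 and Fgf10 had 10, reached by 40.1% and 44.0%. The median was 7 over all autosomal windows and 15 over the 1329 fully covered in all 4 libraries. Among these 6 windows the CG count and the cover therefore did not follow 1 order.

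A core peak, the peak with the highest pileup at each gene, overlapped across all 4 libraries at 8 of the 10 genes, all but Fgf10 and Fgf18. Its length in del/del was below that in del/fl without overlap at 6 of the 8 (Fgf5, Fgf8, Fgf9, Fgf15, Fgf17 and Fgf20) and above it at 0. Among 2197 such cores at autosomal genes 28.9% were shorter and 9.42% longer in this sense, so shorter cores in del/del were common outside these genes. The ratio of mean lengths ranged from 0.523 (Fgf20) to 1.04 (Fgf4), with a median of 0.768, against 0.912 over all cores, where the middle 50% ran from 0.767 to 1.04. Pileup was lower without overlap at 2 of the 8 (Fgf8 and Fgf9) and higher at 0, against 23.0% and 10.5% of all cores. Its median ratio was 0.999 at the 8 genes and 0.976 over all cores. At 4 of the 8 genes (Fgf5, Fgf15, Fgf17 and Fgf20) length separated the genotypes while pileup overlapped. The share of all cores with this pattern was not counted, so it is not read as a trait of these genes. Both values describe the same called peak, so pileup is not a measure independent of length. Of 16 core edges 11 lay further in without overlap and 0 further out, against 25.8% and 10.7% of all core edges. The median of the mean core lengths was 6775 bp for the 8 genes and 4161 bp for all cores, and Fgf17 lay below the latter. With 1 library left out, 6 or 7 of the 8 were shorter, a count that by construction cannot fall below 6. After joining peaks up to 3 kb apart Fgf4, Fgf5, Fgf8 and Fgf20 were shorter (4 of 8). Fgf15 then turned longer, with 7314 and 9004 bp (del/del) against 6057 and 5984 bp (del/fl). The share of all cores that were shorter after joining was not counted.

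**Figure D3:**
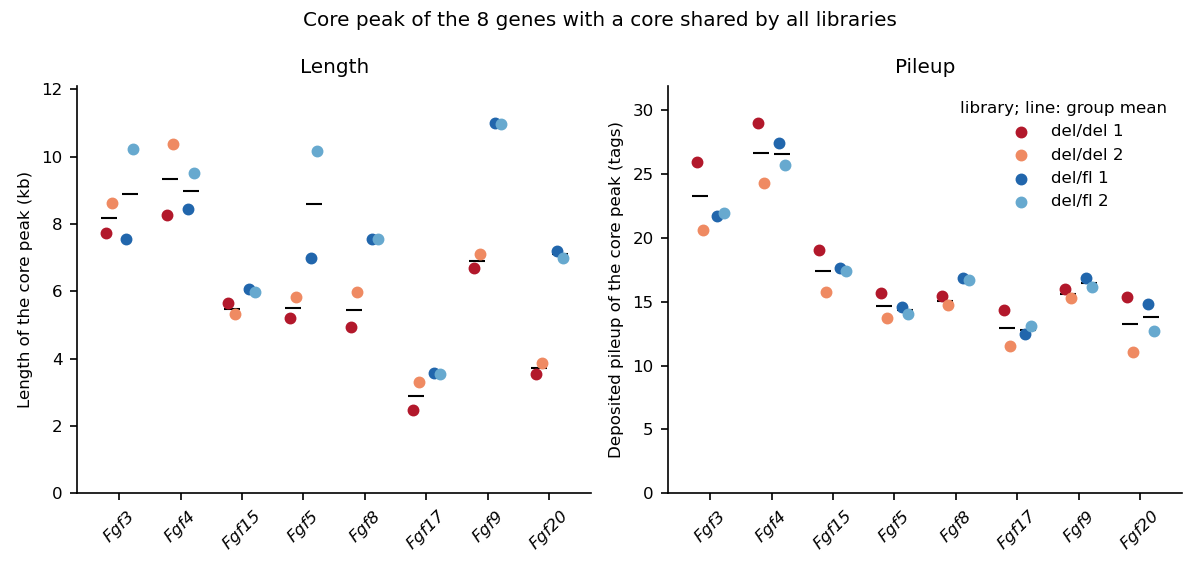
Length in kb (left) and deposited pileup in tags (right) of the core peak at the 8 genes whose core is shared by all libraries, per library, with black lines at group means. At Fgf20 the lengths are 3.55 and 3.88 kb (del/del) and 7.21 and 6.99 kb (del/fl), while pileup overlaps between genotypes at every gene except Fgf8 and Fgf9.

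Within 10 kb of the 10 genes, 9.20 kb was covered in both del/fl libraries and in neither del/del library, and 1.81 kb the other way round. Set against the 46.1 kb covered in all 4 libraries, these were 19.9% and 3.92%. On the autosomes as a whole the same shares were 11.9% and 7.10%. Fgf9 (2306 bp), Fgf20 (2020 bp), Fgf8 (1530 bp), Fgf10 (1004 bp) and Fgf5 (953 bp) held most of the loss, and Fgf3 held none. Gains were limited to Fgf9 (909 bp), Fgf15 (714 bp) and Fgf10 (186 bp).

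Most of the other Fgf genes had no end cover, as was the case over all annotated genes (9132 of 34328 had any). Of 8 other secreted ligands, 7 had no cover at their ends in any library: Fgf1 and Fgf2, broad mitogens of the brain, Fgf6, Fgf7, Fgf21, Fgf22 and Fgf23. The eighth, Fgf16 on the X chromosome, was 100% covered (del/del) and 90.8% and 90.1% (del/fl) (limma, adjusted p = 0.260). Among the 4 intracellular Fgf homologous factors, which bind sodium channels and are not secreted, X-linked Fgf13 was 100% covered (del/del) and 67.6% and 86.6% (del/fl) (limma, adjusted p = 0.611). The autosomal Fgf11 had 10.8% and 11.9% (del/del) and 13.8% and 33.3% (del/fl), Fgf12 had 0% and 2.68% against 9.15% and 4.58%, and Fgf14 had none at its ends. Higher cover in both del/del libraries, as at Fgf13 and Fgf16, was the common case on the X chromosome, at 64.6% of 1067 X-linked genes, with 0.656% lower. Limma found 0 genes of 9132 at an adjusted p of 0.05 in either direction (0% higher and 0% lower), and before adjustment 517 genes were higher and 383 lower with p under 0.05. Fgf16 was called higher with stricter peaks, where 64 of 2160 tested genes were. When either del/fl library was left out, the lone del/fl library was assumed to vary like the del/del pair. Both libraries of that pair are at 100% for Fgf13 and Fgf16, so no call from those fits is given for them.

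**Figure D4:**
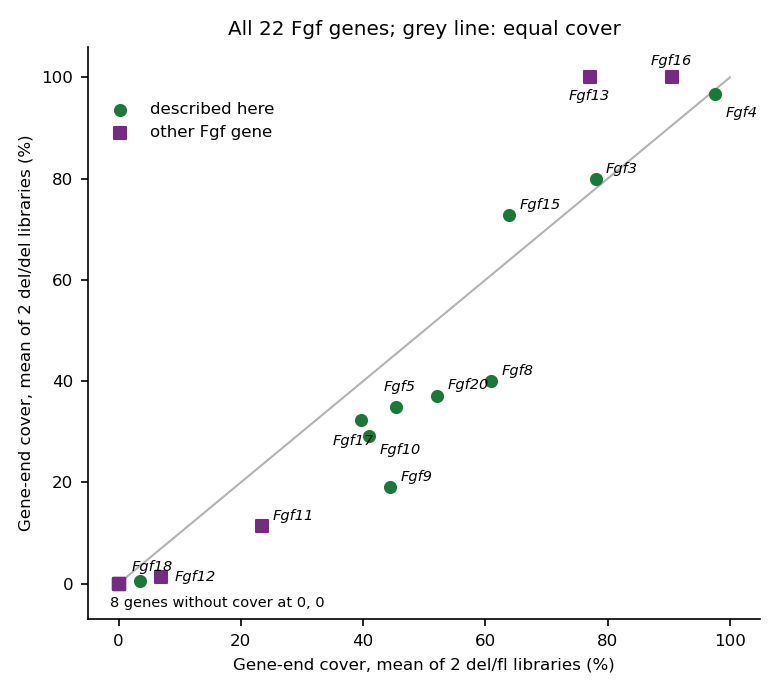
Mean gene-end cover in percent in del/del (vertical) against del/fl (horizontal) for all 22 Fgf genes, 2 libraries per genotype, with circles for the 10 ligand genes described and squares for the other 12. The X-linked Fgf13 and Fgf16 lie above the grey line of equal cover, Fgf5, Fgf8, Fgf9, Fgf10, Fgf17 and Fgf20 below it, and 8 genes at 0.

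Downstream parts of the pathway were mostly unmarked at their ends, like most annotated genes. None of the 9 feedback inhibitors (Spry1 to Spry4, Spred1 to Spred3, Dusp6 and Il17rd) and none of the 3 transcription targets (Etv1, Etv4 and Etv5) had end cover in any library. Of the receptors, Fgfr1 had 7.44% in del/del replicate 2 and 0% in the other 3 libraries. Fgfr4 had 11.4% and 4.57% (del/del) and 9.38% and 14.0% (del/fl), while Fgfr2, Fgfr3 and Fgfrl1 had none. Among co-receptors and binding proteins, Flrt1 had 41.1% and 50% (del/del) and 32.8% and 50% (del/fl). Flrt2 had 5.92% and 17.8% against 11.3% and 30.2%, and Kl, which encodes Klotho, 14.3% and 25.4% against 14.8% and 14.6%, with overlap at each of the 3, and Fgfbp3 had a peak in 1 library. Of 6 signal relay genes only Ptpn11 had a peak, with 1.36% in del/fl replicate 1. In all, 11 of the 42 other pathway genes had any end cover, a share similar to that over all genes (9132 of 34328). Limma called 0 of them higher and 0 lower (smallest adjusted p = 0.260), as it did over all 9132 genes. With del/del replicate 1 left out, Kl had 25.4% (del/del) against a del/fl mean of 14.7%, and Fgfr1 had 7.44% against 0%. That fit has 1 del/del library, assumed to vary like the del/fl pair, so no call from it is given for these genes. Fgfr1 then rests on that library alone.

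Around the ligand genes, 35 other genes lay within 100 kb, 14 of them with some end cover. Cover was close to complete at A730035I17Rik and Tlx3, with 100% in all 4 libraries, and at Prdm8, a zinc-finger gene 66.7 kb from Fgf5, with 83.7% and 80.8% (del/del) and 87.9% and 98.0% (del/fl). Gm26793, which overlaps Fgf15, had 59.8% and 55.0% against 54.9% and 54.2%. Hr, the hairless gene 62.7 kb from Fgf17, had 26.9% and 27.6% against 29.1% and 25.98%, and Gm38605, which overlaps Fgf17, 22.4% and 19.8% against 20.8% and 25.3%. The remaining 8 (Gm39119, Ano1, Cfap299, Dmtn, 3110083C13Rik, Npm1, D930030F02Rik and Ranbp17) had at most 19.9% in any library. Neither Fgf8, Fgf10 nor Fgf20 had a neighbour with end cover within that distance. Ranked by Euclidean distance from Fgf9 over the 4 libraries' end cover, the nearest autosomal protein-coding genes were Kcna1, a potassium channel gene, at 4.93 points, Fibin at 6.63 and Ptger4, a prostaglandin receptor gene, at 7.99. Kcna1 had 19.2% and 19.6% (del/del) and 40.3% and 44.7% (del/fl).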

How the data were processed

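H3K27me3 libraries of 2 del/del and 2 del/fl samples were used, 4 of 8 samples; the 4 whole-cell extracts entered only as peak-calling controls. The submitters' processing notes name bcl2fastq, Bowtie 0.12.9 and the mm10 build. Peaks were called per library with MACS2 2.1.0.20140616 in broad mode, with the larger data set sampled down, a q-value cutoff of 0.05 and 1 tag per position, per the file headers. The weakest listed broad peaks have q-values of 0.0918 to 0.0983, so the lists hold regions past that cutoff; the looser cutoff for broad regions is not given in the headers. The authors' pileup column is a signal of stacked tags, with 1 value per peak. Its values are fractional, so it was not read as a count of tags at 1 position. Fold enrichment, as deposited, is a ratio to local background. Significance is deposited per peak as −log10 of p-values and q-values. All of these per-peak values are the authors'.

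Cover was counted with Python 3.11.15, pandas 2.3.3 and numpy 2.4.6 as the percent of bases under peaks, in the union of windows 2.5 kb to each side of both gene ends and over gene bodies, with RefSeq GRCm38.p6 coordinates. Figures used matplotlib 3.10.9. End cover of 9132 genes with any went into limma 3.58.1 under R 4.3.3 (~group, variance trend, robust fitting, Benjamini-Hochberg adjustment, threshold 0.05). An exact test of 2 against 2 libraries was not run for the 10 genes, since they were chosen on this contrast; they stayed in the limma fit. No label ties a library to its own embryo or line; p-values therefore reflect the spread of these samples, which may be technical. Interval code and limma were tested on simulated data. The genes, lists and settings were chosen with earlier results of these data known. Named genes were all Fgf genes, per pathway list up to 3 with the largest difference, covered neighbours within 100 kb, and the 3 genes nearest to the one with the largest difference. Alternatives were other peak thresholds, list lengths, joining, scaling, windows, filters and limma settings, and leaving out each library. Joining and leave-one-out for core lengths, and a median without 4 genes, were chosen after seeing the data.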

Additional observations from a re-analysis of the deposited data

How the results depend on the processing

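The count of 6 ligand genes with lower end cover in del/del stood beside 15.5% of autosomal genes. It fell to 2 (Fgf8 and Fgf20) with peaks joined over 3 kb, beside 13.9%. After division by each library's autosomal cover it was 3 (Fgf5, Fgf8 and Fgf9), beside 12%. With 1 kb windows it was 3 (Fgf8, Fgf9 and Fgf10), beside 13.4%. The cause of these falls was not tested. At the 5′ end alone it was 3 of the 6 genes with a known strand, which is fewer genes by construction. The autosomal share was not counted there. It was 6 with stricter peaks, equally long lists and 5 kb windows, beside 18.4%, 15.5% and 16.8%. With 1 library left out it was 6 to 7, and such counts of separate genes can only stay or rise there. Division by autosomal cover moved the autosomal median difference from -0.965 to 0.0462 points. The count of higher genes, 1 (Fgf15), became 0 with stricter peaks, after division and with 5 kb windows, and 1 to 3 with 1 library left out; it was 0 at the 5′ end alone, where Fgf15 was not among the genes measured. Lower body cover, at 5 genes, fell to 1 after division. The median end difference was -6.18 points with stricter peaks, -3.21 with joined peaks, -6.23 after division, -4.24 and -5.36 with 1 and 5 kb windows, -12.6 at the 5′ end alone, -13.4 without the chromosome 7 genes and Fgf18, and -11.2 to -6.30 with 1 library left out. The count of shorter cores, 6, was 6 to 7 with 1 library left out, where it cannot fall.

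Limma's 0 called genes became 64 higher and 47 lower with stricter peaks, 17 and 15 with joined peaks, 202 and 20 after division, 15 and 7 with 1 kb windows, and 92 higher with 5 kb windows. With 1 library left out they ran from 0 to 1063 higher and from 0 to 1295 lower: leaving out del/del replicate 1 gave 1063 and 52, del/fl replicate 1 gave 263 and 1295, del/fl replicate 2 gave 296 and 1, and del/del replicate 2 gave 0 in both directions. Of the other pathway genes, 1 (Fgf16) was called higher with stricter peaks, beside 64 of 2160 tested genes. With the replicate number as a block limma called 0 genes in either direction. The numbers are not stated to mark shared lines: deviations of same-numbered libraries correlated at 0.104 over 9132 genes. Peak lists carry no counts, so no counting interval was given for cover or edges, and what depth does to them was not tested. Leaving out a library leaves 1 library in its group, which is assumed to vary like the other group.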
